A study of Homo sapiens with 5 samples.

Results

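WA09 (Wild Type), a line of human embryonic stem cells, was compared between day 5 and day 10 of neural induction in the presence of the Wnt inhibitor XAV939, as D5_XAV939 and D10_XAV939. The members are the droplet barcodes of these 2 conditions with at least 10000 UMIs (unique molecular identifiers, each 1 captured mRNA molecule), at least 3000 genes and a mitochondrial share under 10%. They came to 2830 of 2919 barcodes in D5_XAV939 and 2352 of 2638 in D10_XAV939, or 5182 of the 11357 cells kept in the pooled run, whose 5 conditions held 12107 of the 44007 barcodes of the whole series. Both cultures received 10 µM XAV939 on top of dorsomorphin and SB431542, the dual SMAD inhibition (dSMADi) that D5_dSMADi and D10_dSMADi received without XAV939, while D0 was the undifferentiated line. Each condition was 1 culture of 1 line, carried 1 CellPlex oligonucleotide tag and was sequenced in the same droplet run, so no replicate error exists and the spread between cells is not a replicate error. No test was therefore run. A gene counted as higher or lower where its level changed at least 2-fold, and every interval given is a 95% interval that covers counting error only.

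Dual SMAD inhibition blocks the BMP and the activin and TGF-β branches of signalling and drives pluripotent cells to neural ectoderm. XAV939 inhibits tankyrase, which stabilizes Axin and so lowers β-catenin dependent Wnt signalling. Wnt signals give forebrain tissue its caudal and dorsal character, and Notch signalling, read through HES genes, holds neural progenitors back from becoming neurons.

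Summed over cells, D5_XAV939 held 89175639 UMIs and D10_XAV939 73989552, with medians of 26673 and 25496 UMIs per cell. The condition's own tag was the highest in every barcode of both conditions, and the 5 conditions shared 0 barcodes. The filter removed 89 barcodes of D5_XAV939 and 286 of D10_XAV939, of which 285 were under the UMI minimum. Levels are given as CPM, a gene's UMIs scaled to a total of 1000000 per condition. Of 13486 genes with a mean of at least 1 CPM over both conditions, 868 (6.44%) were at least 2-fold higher at D10_XAV939 and 331 (2.45%) at least 2-fold lower, together 8.89%. At least 4-fold differences numbered 229 higher and 60 lower, and at least 8-fold ones 89 and 15. The median log2 ratio of all genes was 0.17. Ribosomal protein genes moved the other way and took a median of 31.7% of a cell's UMIs at D5_XAV939 and 22.9% at D10_XAV939. With TMM factors the median came to 0.00 and 638 genes were higher against 467 lower, so that 57.7% of the genes past 2-fold were higher in place of 72.4%. A ratio is therefore best read against 0.17, and counts of list members past 2-fold against 6.44% and 2.45%. A list member under 1 CPM on 1 day passed the minimum through the other day alone, so only 1 direction was open to it.

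The labels were checked against marker genes. SOX2, a factor shared by pluripotent and neural cells, had a UMI in 99.7% of D5_XAV939 cells and 98.8% of D10_XAV939 cells after each cell was thinned to 10000 UMIs. POU5F1, the core pluripotency factor, stood at 1246 CPM in D0, 25.9 in D5_XAV939 and 15.4 in D10_XAV939. L1TD1, an RNA-binding protein of pluripotent cells, went from 1712 CPM at D0 to 179 and then 34.5. Most of the loss of the pluripotent state thus lay before day 5. All conditions shared a droplet run, and free RNA can give UMIs in cells that do not express a gene. LINC00678, FOXD3-AS1 and TDGF1, all high in D0, stood at 0.912%, 0.935% and 1.08% of their D0 level in D10_XAV939 and at similar shares in the 3 other differentiated conditions. They were picked from the genes high in D0 whose D10_XAV939 share of the D0 level was lowest, a group that also held POU5F1 and L1TD1. POU5F1 stood at 2.08% of its D0 level in D5_XAV939 and 1.24% in D10_XAV939. Its closeness to these genes on day 10 was partly set by the choice, and its day 10 level is not read as expression. L1TD1 stood at 10.5% and 2.01%, so free RNA may make up part of its day 10 level, which was not tested. Of the 28 pluripotency genes, 18 reached the minimum level (median log2 ratio -0.23). Of the 18, 1 was higher at D10_XAV939 (5.56%, against 6.44% of all genes) and 4 were lower (22.2%, against 2.45%). LIN28A (494 and 438 CPM), LIN28B (192 and 219 CPM) and SALL4 (140.5 and 118 CPM) were within 2-fold of their day 5 levels. Among the markers of mesoderm, endoderm and neural crest, TBXT, SOX17, FOXA2, GATA4 and SOX10 were each under 1 CPM in both conditions. Not all members were this low. Of 10 neural crest markers 1 reached the minimum level, SOX9, and it was higher on day 10. Of 15 mesoderm and endoderm markers 3 did, with CXCR4 higher, FOXA1 lower and GSC within 2-fold. The summed level of these 15 was 8.67 CPM in D5_XAV939 and 17.9 in D10_XAV939.

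The long noncoding RNA LINC01551 had the largest ratio among genes that reached 50 CPM. It was at 0.798 CPM in D0, 1.44 in D5_XAV939 and 103 in D10_XAV939, a 71.9-fold difference (log2 ratio 6.17, interval 5.92 to 6.43). Without XAV939 its levels were 0.834 and 4.72 CPM on the same days. Part of its annotated span is shared with another annotation on the same strand, and reads there cannot be assigned with certainty.

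The LINC01551 signal spread over many cells rather than a small group. After thinning, 1.27% of D5_XAV939 cells and 53.2% of D10_XAV939 cells had a UMI, and 3.32% and 72.8% without thinning. D0 gave 0.543% after thinning and 4.52% without it, where its median depth was 67232 UMIs. The tenth of D10_XAV939 cells with most LINC01551 held 41.3% of its thinned UMIs, and the highest thinned count in a cell was 12.

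**Figure D1:**
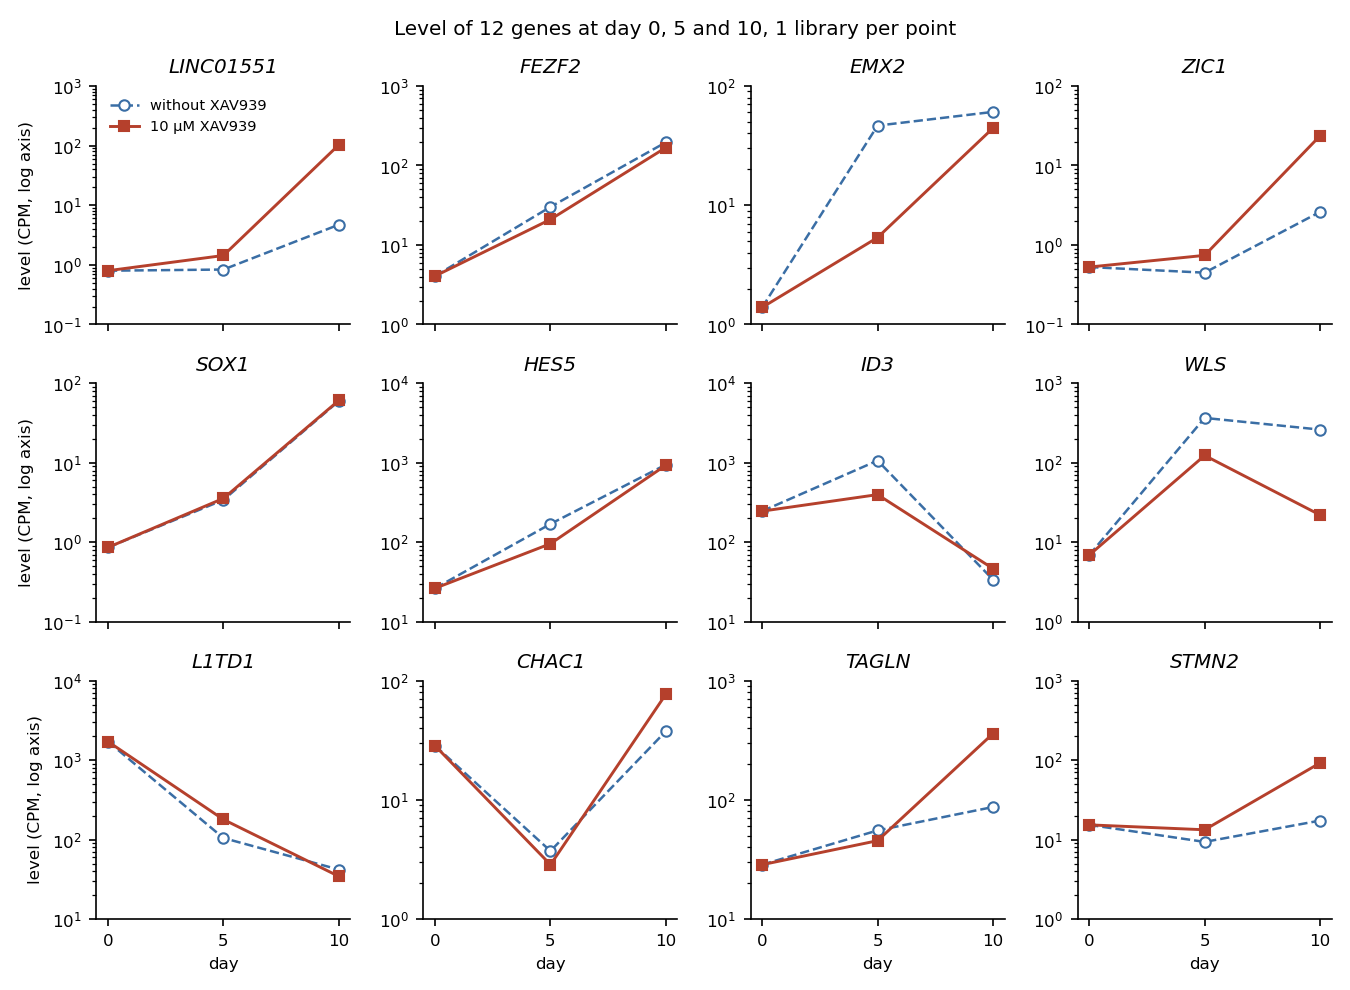
Level in CPM (log axis) of 12 genes at day 0, 5 and 10 with 10 µM XAV939 (red squares) and without it (open blue circles), 1 library per point. LINC01551 reaches 103 CPM with XAV939 and 4.72 without, while SOX1 ends at 61.0 and 59.9.

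Regional forebrain factors moved one by one. Of the 32 anterior and ventral forebrain genes, 12 reached the minimum level. Of these, 4 were higher (33.3%, against 6.44% of all genes) and 2 lower (16.7%, against 2.45%). Of the 4, 1 was under 1 CPM in D5_XAV939 and passed the minimum through its day 10 level alone. The median log2 ratio was 0.08, below the 0.17 of all genes. FEZF2, a zinc-finger factor of the forebrain, was at 21.0 CPM in D5_XAV939 and 168 in D10_XAV939, and its close relative FEZF1 at 98.8 and 53.7. HESX1, a homeobox repressor of the early anterior neural plate, went from 36.9 to 2.65 CPM (log2 ratio -3.80), the lowest ratio of those 12. HESX1 and FEZF2 thus moved in opposite directions.

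SIX3, which marks the most anterior forebrain, was at 82.3 and 114 CPM, within 2-fold. RAX, an eye-field homeobox gene, was at 58.3 CPM and then 34.0, and SIX6, another gene of eye and hypothalamus, at 17.7 and 3.88. VAX1, a ventral forebrain homeobox gene singled out after its values were seen, was at 0.706 and 16.8 CPM with XAV939 and at 0.187 and 0.176 CPM without it. The ganglionic eminence and hypothalamic genes stayed low. NKX2-1 was at 0 and 0.176 CPM, and DLX2 at 0.0449 and 0.460, and GSX2 had no UMI in either condition.

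Dorsal and caudal forebrain genes moved in both directions. Of 33, 25 reached the minimum level, with a median log2 ratio of 0.64. Of the 25, 11 were higher (44%, against 6.44% of all genes) and 4 lower (16%, against 2.45%). Of the 11, 5 were under 1 CPM in D5_XAV939, and of the 4, 1 was under 1 CPM in D10_XAV939. These passed the minimum through the other day alone, so the 11 and the 4 cannot be compared directly. Without the 70 cells rich in neuronal genes that are described further on, 8 of 23 were higher and 5 lower. ZIC1, a zinc-finger factor of dorsal neural tissue and septum, was at 0.740 CPM in D5_XAV939 and 23.7 in D10_XAV939 (log2 ratio 4.999, interval 4.64 to 5.38), and its share of cells went from 0.813% to 16.9%. EMX2, a homeobox gene of the cortical primordium, was at 5.36 and 44.4 CPM (log2 ratio 3.05). Without XAV939 EMX2 was already at 46.5 CPM on day 5 and stood at 60.6 on day 10. The EMX2 level of the XAV939 culture on day 10 was thus close to the day 5 level of the culture without it.

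NR2F1, an orphan receptor graded along the cortex, was at 43.1 and 292 CPM with XAV939. OTX2, a forebrain and midbrain homeobox gene, was at 80.8 and 126 CPM, PAX6 at 82.7 and 147, and LHX2 at 67.9 and 102, all within 2-fold. ZIC2, a relative of ZIC1, went the other way at 112 and 62.1 CPM. At D10_XAV939 a ZIC1 UMI was present in 26.3% of the 628 cells with an EMX2 UMI and in 13.5% of the 1724 without one. Of the 19 midbrain, hindbrain and HOX genes, 3 reached the minimum level, and PAX2, a midbrain and optic stalk gene, was at 4.70 and 0.500 CPM. The HOX genes of the list were at 0 or at most 0.0135 CPM.

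**Figure D2:**
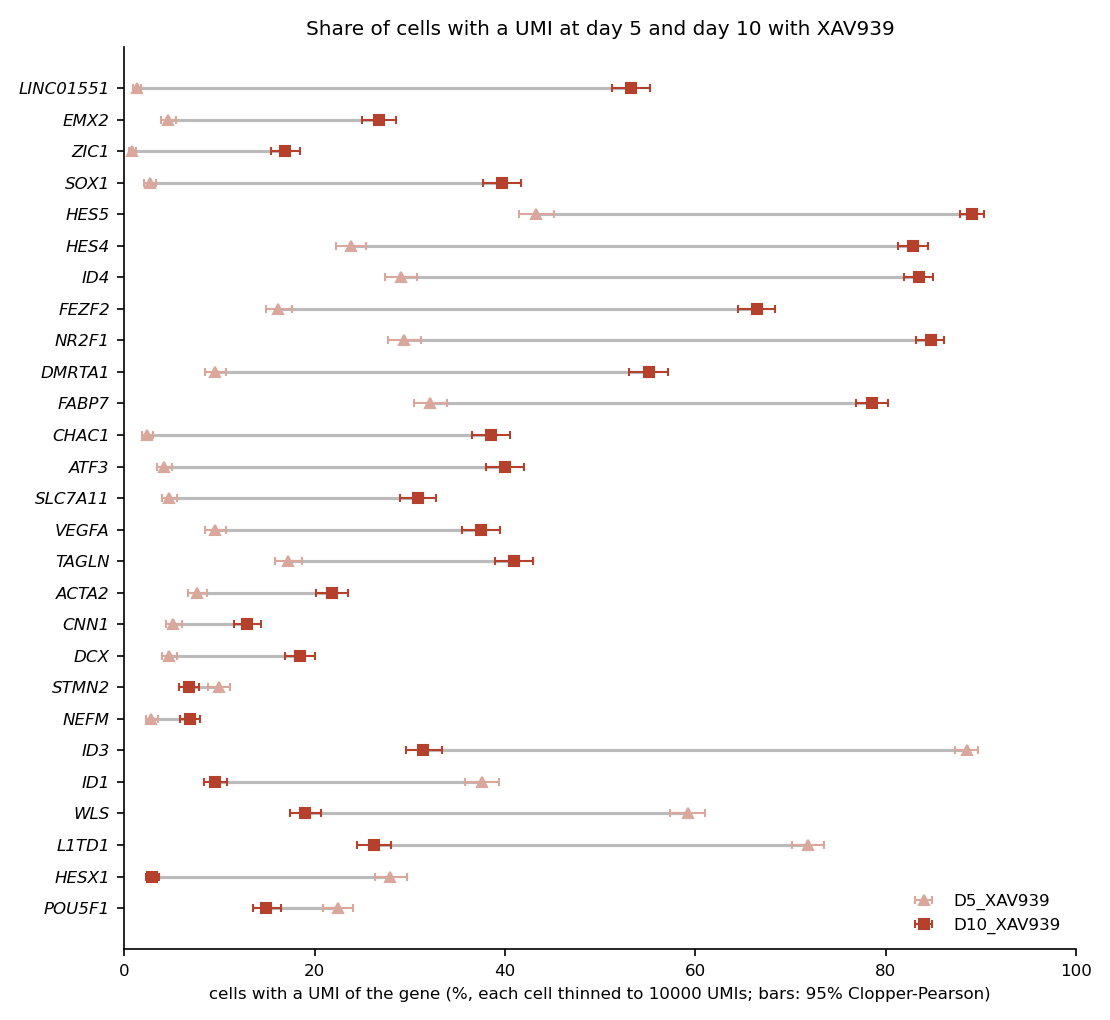
Percentage of cells with at least 1 UMI of each gene in D5_XAV939 (triangles) and D10_XAV939 (squares), each cell thinned to 10000 UMIs, with 95% Clopper-Pearson bars that cover counting error only. LINC01551 goes from 1.27% to 53.2% and ID3 from 88.5% to 31.4%, while STMN2 goes from 9.89% to 6.76%.

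Neural progenitor genes were higher or within 2-fold on day 10. All 27 reached the minimum level, and 10 were higher (37.0%, against 6.44% of all genes), 17 within 2-fold and 0 lower. The median log2 ratio was 0.82. SOX1, a factor of committed neural progenitors, was at 3.57 CPM in D5_XAV939 and 61.0 in D10_XAV939 (log2 ratio 4.10), and its course without XAV939 was 3.41 and 59.9. FABP7, the radial glial fatty acid binding protein, was at 40.4 and 234 CPM. SOX9, a factor of progenitors and glia, was at 15.9 and 60.6 CPM. The intermediate filament genes VIM, at 563 and 1095 CPM, and NES, at 317 and 558, stayed just within 2-fold. The N-cadherin gene CDH2 was at 215 and 476 CPM.

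Among Notch genes, HES5, HES4, NRARP, LFNG and the ligands JAG1, DLL1 and DLK1 were higher on day 10. Of 21 genes, 20 reached the minimum level, with a median log2 ratio of 0.34. Of the 20, 7 were higher (35%, against 6.44% of all genes) and 2 lower (10%, against 2.45%). The list's share of a cell's UMIs had a median of 0.173% at D5_XAV939 and 0.601% at D10_XAV939. DLK1 alone made up 67.9% and 70.0% of the list's summed level, which without it was 580.6 and 1836 CPM. HES5, the main Notch effector of neural progenitors, was at 26.4 CPM in D0, 96.0 in D5_XAV939 and 935 in D10_XAV939, 9.74-fold apart. HES4 was at 30.3 and 283 CPM, and HES1 went the other way at 81.2 and 36.7 CPM (log2 ratio -1.14). The 3 related repressors therefore did not move together.

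The ligands JAG1 (42.6 and 111 CPM) and DLL1 (18.1 and 44.7 CPM), the feedback gene NRARP (43.5 and 107 CPM) and the glycosyltransferase gene LFNG (40.4 and 82.1 CPM) were each higher on day 10. DLK1, a noncanonical ligand and imprinted gene, held 1230.1 CPM at D5_XAV939 and 4284 at D10_XAV939, against 1137 and 1840.4 CPM without XAV939. The receptors NOTCH1 (25.3 and 31.9 CPM), NOTCH2 (33.4 and 24.2 CPM) and NOTCH3 (20.1 and 21.2 CPM) were within 2-fold.

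The promoters of the 3 HES genes are shown because they carry a match to the motif of RBPJ, the DNA-binding partner of Notch. The letters GTGGGAA were searched on both strands of RefSeq promoters (GRCh38.p14, 300 bases, 250 before the start and 50 after), and 6.25% of 35116 promoters held them, or at least 1 promoter of 7.63% of 27305 genes. Of the 16 Notch genes with a promoter, 5 had a match, namely HES1, HES4, HES5, HEY2 and HEYL. HEY2 (1.17 and 1.14 CPM) and HEYL (0.751 and 1.27 CPM) were within 2-fold. The 250 bases before each start are given on the gene's strand with the match in capitals. HES5, at chr1:2530264-2530513 on the minus strand, has its matches 81 and 224 bases before the start. HES4, at chr1:1000098-1000347 on the minus strand, has 1 at 77 bases, and HES1, at chr3:194135898-194136147 on the plus strand, has 1 at 85 bases. These are descriptions of letters, shared by a gene that was lower and by genes that were higher.
HES5: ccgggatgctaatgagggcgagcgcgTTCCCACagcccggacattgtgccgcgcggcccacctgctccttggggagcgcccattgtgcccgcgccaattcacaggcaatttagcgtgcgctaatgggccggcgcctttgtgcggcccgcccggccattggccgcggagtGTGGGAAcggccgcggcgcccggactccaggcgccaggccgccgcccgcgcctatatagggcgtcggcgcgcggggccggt
HES4: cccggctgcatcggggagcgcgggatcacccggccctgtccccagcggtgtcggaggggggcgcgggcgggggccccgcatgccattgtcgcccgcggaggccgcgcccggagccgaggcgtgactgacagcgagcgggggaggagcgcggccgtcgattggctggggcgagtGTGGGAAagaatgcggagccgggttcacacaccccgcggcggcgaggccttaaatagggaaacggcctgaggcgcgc
HES1: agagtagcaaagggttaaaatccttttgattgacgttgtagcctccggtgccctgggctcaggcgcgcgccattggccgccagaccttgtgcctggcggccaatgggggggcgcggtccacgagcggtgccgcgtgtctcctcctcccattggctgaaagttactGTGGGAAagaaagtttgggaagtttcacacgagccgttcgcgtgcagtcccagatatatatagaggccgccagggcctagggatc

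The neuronal genes were high in a small group of D10_XAV939 cells. Of 25 neuronal genes, 18 reached the minimum level, 4 of them at under 1 CPM in D5_XAV939. Of the 18, 12 were higher (66.7%, against 6.44% of all genes) and 0 lower (median log2 ratio 2.50). Of 23 proneural factors, 12 reached it, 7 of them at under 1 CPM in D5_XAV939. Of these 12, 10 were higher (83.3%) and 1 lower (8.33%, against 2.45% of all genes), with a median log2 ratio of 2.90. Both counts and medians thus lean on genes that passed through their day 10 level. STMN2, a stathmin of young neurons, was at 13.3 and 92.2 CPM, yet its share of cells was 9.89% at D5_XAV939 and 6.76% at D10_XAV939, against 12.9% in D0. NEFM, a neurofilament gene, was at 3.67 and 61.5 CPM.

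Cells were then counted by how many of 13 neuronal marker genes had a UMI after thinning. With 3 or more genes there were 102 of 2830 cells at D5_XAV939 (3.60%, interval 2.95 to 4.36) and 248 of 2352 at D10_XAV939 (10.5%, 9.33 to 11.9). D0 gave 8.96%, D5_dSMADi 3.30% and D10_dSMADi 3.78%, so this limit alone does not separate neurons from the pluripotent line. At 5 or more genes the conditions parted. D5_XAV939 had 0 of 2830 cells, which allows a share of up to 0.106% (a limit of 3 counts in the total), D0 also had 0, and D10_XAV939 had 70 (2.98%, 2.33 to 3.75). D10_dSMADi had 20 such cells. The highest number in a cell was 4 at D5_XAV939 and 13 at D10_XAV939.

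**Figure D3:**
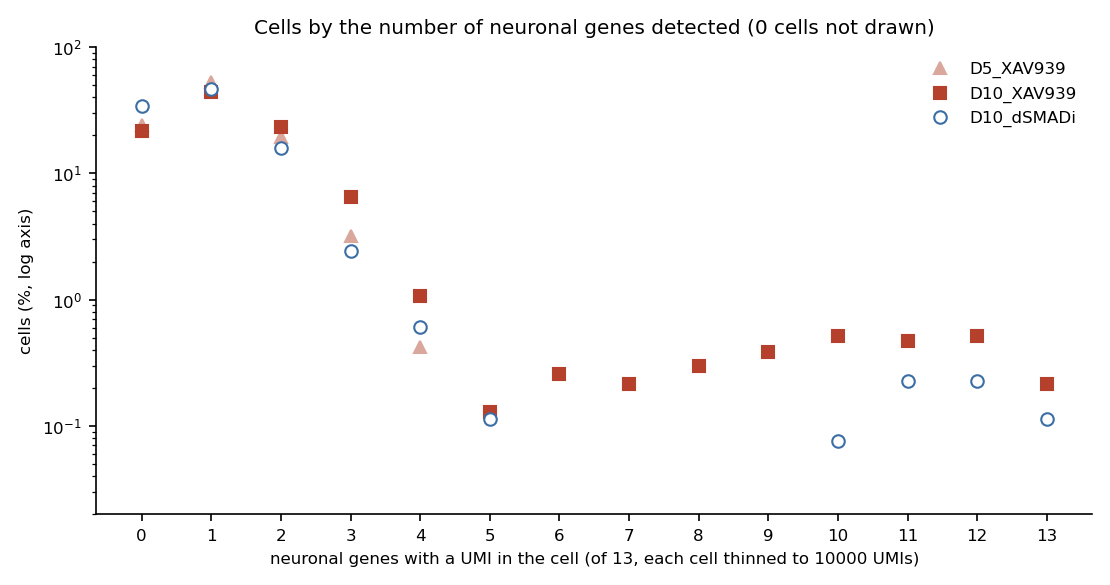
Percentage of cells (log axis) by the number of the 13 neuronal genes with a UMI, each cell thinned to 10000 UMIs, for D5_XAV939, D10_XAV939 and D10_dSMADi; numbers of genes held by 0 cells are not drawn. D5_XAV939 ends at 4 genes, and D10_XAV939 reaches 13.

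The 70 cells were chosen by neuronal genes, so those genes are high in them by construction. They held 2.78% of the UMIs of D10_XAV939, at a median of 22574 UMIs against 25689 in the other cells, and 90.9% of its STMN2 and 93.5% of its NEFM UMIs. In the other cells STMN2 was at 8.59 CPM and NEFM at 4.10, against 13.3 and 3.67 CPM in D5_XAV939. Genes that played no part in the choice were concentrated there as well. SST, the neuropeptide somatostatin, was at 839.6 CPM in the 70 cells and 0.500 in the others, and NHLH1, a helix-loop-helix factor of newborn neurons, at 507 and 2.42. After thinning, 38 of the 2352 D10_XAV939 cells had an SST UMI, with up to 171 in a cell. DLL3, a Notch pathway inhibitor of nascent neurons, was at 415 and 6.83 CPM.

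Further genes, picked after their values were seen and some of them at few UMIs, had most of their D10_XAV939 UMIs in the 70 cells. They were TBR1 (92.2%), EOMES (89.2%) and RELN (94.2%) of cortical neurons and their precursors, LHX1 (95.9%), LHX9 (93.0%) and UNCX (95.4%) of diencephalic and other neurons, the Wnt agonist gene RSPO3 (94.5%) and the hormone gene CRH (99.5%). HES5 was lower in the 70 cells (346 CPM) than in the others (952 CPM), as were SOX2 (426 and 1049) and the cycling gene MKI67 (83.7 and 253). DCX, a microtubule protein of migrating neurons, differed from STMN2, with 31.6% of its UMIs in the 70 cells and 19.9 CPM in the others against 4.99 in D5_XAV939. Of the 868 genes that were 2-fold higher, 40 (4.61%) had at least 50% of their D10_XAV939 UMIs in the 70 cells, as did 53 (0.393%) of 13476 genes compared. Both counts include marker genes that were used to choose the cells. D5_XAV939 had 0 such cells, so a gene found mainly in them tends to pass the minimum through day 10 and to be higher. The excess among the higher genes was thus largely built in and is not read as a result. Without these cells, a check added after the values were seen, 811 genes were higher and 365 lower, and of the neuronal genes 15 reached the minimum level, with 5 higher and 1 lower (median log2 ratio 0.36). Of the proneural factors 5 then reached it, with 3 higher and 0 lower (median log2 ratio 1.24).

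BMP and TGF-β genes moved in both directions, and the ID genes, direct targets of BMP signalling that inhibit helix-loop-helix factors, split among themselves. Of 29 genes, 24 reached the minimum level, and 6 were higher (25%, against 6.44% of all genes) and 6 lower (25%, against 2.45%). The median log2 ratio was 0.07, below that of all genes. Among the 24, 3 of the higher were under 1 CPM in D5_XAV939 and 2 of the lower under 1 CPM in D10_XAV939. Those genes passed the minimum through the other day alone. ID3 was at 246 CPM in D0, 398 in D5_XAV939 and 46.7 in D10_XAV939 (log2 ratio -3.09). ID1 was at 67.3 and 10.8 CPM (log2 ratio -2.64) and ID2 at 108 and 47.3. ID4, which neural progenitors use, went from 43.5 to 408 CPM (log2 ratio 3.23). The ID3 share of cells went from 88.5% to 31.4% and that of ID4 from 29.1% to 83.5%. FST, a secreted activin antagonist, was at 70.5 and 14.2 CPM, and NOG, the BMP antagonist noggin, at 0.493 and 2.43.

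AXIN2 and several other feedback targets of Wnt signalling were at a few CPM or less on both days. AXIN2, the most general feedback target of β-catenin, was at 4.21 CPM in D5_XAV939 and 3.32 in D10_XAV939, and at 4.61 and 4.38 without XAV939. SP5, NOTUM, DKK1 and RNF43 were at most at 0.269 CPM in both. Of 17 feedback targets, 12 reached the minimum level, with a median log2 ratio of 0.29. Of the 12, 2 were higher (16.7%, against 6.44% of all genes) and 1 lower (8.33%, against 2.45%). The higher ones were LGR5, the receptor for R-spondins, at 0.549 and 6.34 CPM, and MYC, at 9.95 and 25.1. LGR5 passed the minimum through its day 10 level alone. The lower gene was under 1 CPM in D10_XAV939 and passed through its day 5 level alone. The cyclin gene CCND1, at 157 and 219 CPM, made up most of the list's summed level, which was 206 CPM in D5_XAV939, 291 in D10_XAV939 and 237 in D0.

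Among 45 Wnt ligands, receptors and modulators, 29 reached the minimum level, and 2 were higher (6.90%, against 6.44% of all genes) and 3 lower (10.3%, against 2.45%), with a median log2 ratio of 0.01. The share of higher genes was thus near that of all genes. Of the 3 lower genes, 1 was under 1 CPM in D10_XAV939 and passed the minimum through its day 5 level alone. WLS, the carrier that secreted Wnt proteins need, was at 124 CPM in D5_XAV939 and 22.04 in D10_XAV939 (log2 ratio -2.49), and 59.2% and 18.96% of cells had a UMI. Without XAV939 WLS was at 367 and 262 CPM. It had the lowest ratio of the 29 genes with XAV939. WNT7B, a ligand of the neural tube, was at 2.44 and 16.2 CPM, and WNT5B at 53.7 and 101. ROR1, a receptor for WNT5A, was at 23.4 and 7.66 CPM. SFRP1, a secreted Wnt antagonist, was at 1229.6 CPM and 689.6, and the receptor FZD5 at 149 and 249. TNKS and TNKS2, the tankyrases that XAV939 inhibits, were at 54.7 and 54.7 CPM and at 53.2 and 40.7 CPM.

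FGF signalling genes gave a mixed picture. All 22 reached the minimum level, and 2 were higher (9.09%, against 6.44% of all genes) and 3 lower (13.6%, against 2.45%). The median log2 ratio was -0.13, and the share of higher members was near that of all genes. The receptor FGFR2 was at 26.9 CPM and then 4.45, and DUSP6, an ERK phosphatase induced by FGF, at 26.2 and 9.31. Its relative DUSP4 was at 17.1 and 38.9 CPM, and SPRY2, another feedback inhibitor, at 52.7 and 97.0. FGF8, the signal of the anterior neural ridge, was at 23.4 and 21.3 CPM. Of insulin-like growth factor binding proteins, IGFBP3 was at 69.5 and 240.1 CPM and IGFBP5 at 239.6 and 417.

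The list of dissociation and heat stress genes did not stand apart from all genes in its median. All 22 reached the minimum level, and 6 were higher (27.3%, against 6.44% of all genes) and 1 lower (4.55%, against 2.45%). The median log2 ratio of 0.17 equalled that of all genes, while the share of higher members was above theirs. Of the 6, 1 was under 1 CPM in D5_XAV939 and passed the minimum through its day 10 level alone. The 6 were CHAC1, ATF3, ASNS, DDIT3, TRIB3 and ATF4, which are known from the amino acid and endoplasmic reticulum stress response. They are grouped here after their values were seen. CHAC1, which degrades glutathione, was at 28.4 CPM in D0, 2.86 in D5_XAV939 and 77.1 in D10_XAV939 (log2 ratio 4.75), and at 3.72 and 37.7 without XAV939. ATF3 was at 4.71 and 70.7 CPM, and ASNS, asparagine synthetase, at 0.639 and 9.001. The direction was the same without XAV939 for all 3.

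ATF4 was at 89.2 and 218 CPM, DDIT3, a factor of prolonged stress, at 4.23 and 29.6, and the pseudokinase gene TRIB3 at 1.402 and 8.51. Outside the list, SLC7A11, the cystine importer, was at 6.30 and 63.9 CPM, SESN2, a stress-induced inhibitor of mTORC1, at 12.7 and 56.7, and VEGFA at 11.6 and 61.3. The heat shock and immediate early genes of the same list differed from these. FOS was at 23.5 and 14.9 CPM, JUN at 10.1 and 16.3, HSPA1A at 35.8 and 26.5, and FOSB, at 3.39 and 1.27, was the 1 lower gene. Of the 905 D10_XAV939 cells with a CHAC1 UMI, 52.5% also had an ATF3 UMI and 45.5% an SLC7A11 UMI, against 32.1% and 21.7% of the 1447 cells without one.

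Promoters of 3 of these genes are shown because they hold the letters of the amino acid response element, TGATGNAA, which ATF4 dimers bind and which was searched on both strands. It was present in 3.62% of the 35116 promoters, or in at least 1 promoter of 4.46% of 27305 genes. Promoters were found for 22 of 24 genes searched, the stress list with SESN2 and SLC7A11 added, and 3 of their 31 promoters held it, 1 each of CHAC1, ATF3 and ASNS. ATF3 and ASNS each have another promoter without a match. The capitals mark the match, 209 bases before the start and on the opposite strand in CHAC1 (chr15:40953221-40953470, plus strand), 191 bases before it in ATF3 (chr1:212565157-212565406, plus strand) and 68 bases before it in ASNS (chr7:97872409-97872658, minus strand). The promoters of DDIT3, TRIB3 and ATF4 had no match.
CHAC1: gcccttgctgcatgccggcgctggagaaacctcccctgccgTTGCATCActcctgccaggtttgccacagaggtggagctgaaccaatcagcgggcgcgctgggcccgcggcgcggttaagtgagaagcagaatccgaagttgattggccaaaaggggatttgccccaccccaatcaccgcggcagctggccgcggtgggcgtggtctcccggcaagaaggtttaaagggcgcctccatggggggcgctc
ATF3: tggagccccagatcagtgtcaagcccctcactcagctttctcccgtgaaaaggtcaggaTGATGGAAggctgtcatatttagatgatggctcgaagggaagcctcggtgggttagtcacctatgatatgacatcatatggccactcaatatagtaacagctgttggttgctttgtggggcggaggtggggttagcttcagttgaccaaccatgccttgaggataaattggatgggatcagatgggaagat
ASNS: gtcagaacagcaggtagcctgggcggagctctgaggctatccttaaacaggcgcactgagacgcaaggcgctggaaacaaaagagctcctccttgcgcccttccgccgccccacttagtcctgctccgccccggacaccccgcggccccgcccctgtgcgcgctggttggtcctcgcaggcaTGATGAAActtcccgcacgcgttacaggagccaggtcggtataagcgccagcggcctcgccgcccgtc

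Many actin and contractile genes were higher on day 10. Of 30, 27 reached the minimum level, and 11 were higher (40.7%, against 6.44% of all genes) and 0 lower. The median log2 ratio was 0.72. Of the 11, 1 was under 1 CPM in D5_XAV939 and passed the minimum through its day 10 level alone. The list's share of a cell's UMIs had a median of 0.966% and then 1.57%. Without XAV939 it moved alike, from 1.01% at D5_dSMADi to 1.60% at D10_dSMADi. TAGLN, the actin-bundling transgelin, was at 45.5 CPM in D5_XAV939 and 359.9 in D10_XAV939 (log2 ratio 2.98), against 55.4 and 87.1 without XAV939. ACTA2, smooth muscle actin, was at 9.42 and 52.4 CPM, CNN1, calponin, at 7.47 and 26.9, and TPM1, tropomyosin, at 878 and 2621. TAGLN was uneven among cells on both days. A UMI was present in 17.2% of D5_XAV939 and 40.9% of D10_XAV939 cells. The tenth of cells with most TAGLN held 83.4% of its thinned UMIs in D5_XAV939 and 75.9% in D10_XAV939. CNN1 had a UMI in 26.1% of the 963 cells with TAGLN and in 3.74% of the 1389 without.

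Of 34 extracellular matrix genes, 31 reached the minimum level, with a median log2 ratio of 0.42. Of the 31, 7 were higher (22.6%, against 6.44% of all genes) and 2 lower (6.45%, against 2.45%). Of the 7, 2 were under 1 CPM in D5_XAV939 and passed the minimum through their day 10 level alone. The fibrillar collagen gene COL11A1 was at 19.5 and 92.7 CPM, and COL5A2 at 7.11 and 27.4, while the matrix protein gene FBLN1 went from 123 to 41.5 CPM. Among cadherins and adhesion genes, 23 of 30 reached the minimum level, with a median log2 ratio of -0.08. Of the 23, 5 were higher (21.7%, against 6.44% of all genes) and 3 lower (13.04%, against 2.45%). CDH11, a mesenchymal cadherin, was at 39.6 and 125 CPM, and CLDN6, a tight junction protein of early epithelia, at 35.5 and 8.24. Of the 17 surface ectoderm and placode markers, 8 reached the minimum level, and 2 were higher (25%, against 6.44% of all genes). These were EYA4 (1.04 and 5.77 CPM) and TFAP2A, a factor of surface ectoderm and crest, which was at 0.168 and 9.30 CPM and in 0.177% and 5.57% of cells. TFAP2A passed the minimum through its day 10 level alone. The keratin genes KRT18 (84.6 and 67.1 CPM) and KRT19 (61.6 and 33.9 CPM), by contrast, were not higher.

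Most cell cycle genes had ratios slightly above 1 and within 2-fold. The 25 replication genes all had a log2 ratio above 0, from 0.16 to 1.01, with a median of 0.52. Of the 25, 2 were past 2-fold (8%, near the 6.44% of all genes), among them the factor E2F1 (10.5 and 21.2 CPM). The 26 genes of mitosis had a median log2 ratio of 0.29 and none past 2-fold. MKI67 had a UMI in 45.6% of D5_XAV939 and 56.3% of D10_XAV939 cells after thinning, and TOP2A in 63.8% and 74.8%. Read against the all-gene median of 0.17, the lowest replication gene, CDT1 (0.16), lay just below it. Of 20 p53 targets, 19 reached the minimum level, and 3 were higher (15.8%, against 6.44% of all genes) and 0 lower. The largest ratios were those of SESN2 and PHLDA3 (6.17 and 21.5 CPM). The list's median log2 ratio was 0.60 with XAV939 and 1.24 without it. The 22 cholesterol synthesis genes (median log2 ratio 0.31), 79 nuclear genes of oxidative phosphorylation (0.20) and 13 mitochondrially encoded genes (0.18) had 0 members past 2-fold. The 83 ribosomal protein genes, which were 5 of 83 above a log2 ratio of 0, had a median of -0.46.

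**Figure D4:**
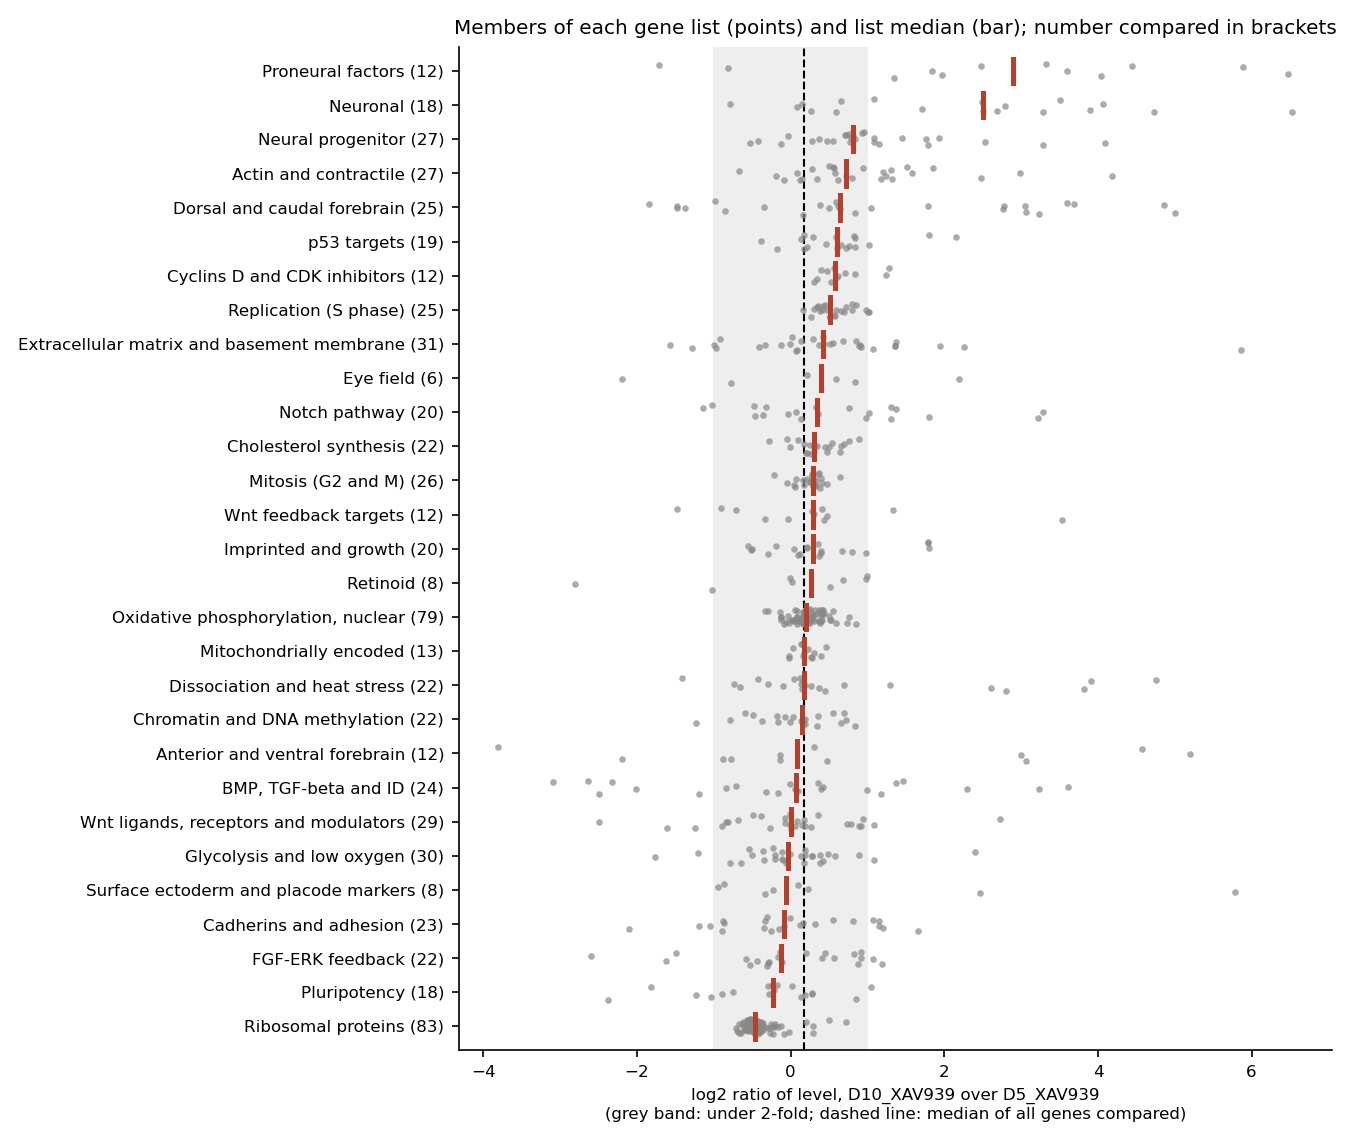
Log2 ratio of level, D10_XAV939 over D5_XAV939, for the members of each gene list drawn that reached the minimum level (points) and the list's median (red bar), with the number of members in brackets. The neural crest, the mesoderm and endoderm, and the midbrain, hindbrain and HOX lists are not drawn. The dashed line is the median of all genes, 0.17, and the grey band marks under 2-fold. Of the lists drawn, proneural (2.90) and neuronal (2.50) medians lie farthest right and ribosomal protein genes (-0.46) farthest left. Without the 70 cells the first 2 are 1.24 and 0.36.

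The change from day 5 to day 10 was then set beside that without XAV939, over 13567 genes with a mean of at least 1 CPM in the 4 libraries. With XAV939 856 (6.31%) were higher and 351 (2.59%) lower, and without it 1067 (7.86%) and 298 (2.2%). Of these, 588 were higher in both arms, which is 68.7% of those with XAV939 and 55.1% of those without, and 195 were lower in both, 55.6% and 65.4%. The difference between the 2 log2 changes (with XAV939 minus without) was at least 1 above 0 for 182 genes (1.34%) and at least 1 below 0 for 277 (2.04%). LINC01551 had the largest of these among genes reaching 50 CPM (difference 3.67, interval 3.22 to 4.12). It was higher on day 10 in both arms, by more with XAV939.

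The next largest differences above 0 among genes reaching 50 CPM had several forms. SHISA2, an inhibitor of Wnt and FGF receptor maturation, was at 40.0 and 32.1 CPM with XAV939 but at 95.1 and 8.19 without, so that it was lower on day 10 mainly without XAV939 (difference 3.22). CAPN6, a calpain without protease activity, was at 9.46 and 51.2 CPM with XAV939 and 17.5 and 14.4 without (difference 2.72). EMX2 (difference 2.67) started lower on day 5 with XAV939. RHOU, an atypical small GTPase, was at 23.9 and 53.02 CPM with XAV939 and at 28.7 and 12.1 without (difference 2.39), the one of these that passed 2-fold in opposite directions. TAGLN differed by 2.33, and the unnamed transcript AL139246.5 (3.79 and 61.2 CPM with XAV939, 10.7 and 39.3 without) by 2.14. ID1 (2.12) and ID3 (1.89) were lower on day 10 in both arms, from higher D5_dSMADi levels of 328 and 1066 CPM.

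On the other side, WNT2B, a ligand of the dorsal midline and eye, was at 8.38 and 16.1 CPM with XAV939 and at 8.08 and 110.1 without (difference -2.82). The share of cells with a WNT2B UMI after thinning was 13.05% at D10_XAV939, 61.6% at D10_dSMADi and 1.36% in D0, taken as the background. Without thinning these shares were 32.2%, 88.2% and 10.6%, at median depths of 25496, 32391 and 67232 UMIs. WLS differed by -1.999, the protocadherin gene PCDH18 (103 and 18.6 CPM) by -1.69, and SOX3, a progenitor factor (35.7 and 67.9 CPM, and 33.2 and 165 without), by -1.38. DUSP6 was lower on day 10 with XAV939 and at 11.7 and 18.5 CPM without it (difference -2.15). SOX1 (-0.04, interval -0.28 to 0.20) and HES5 (0.80, 0.76 to 0.84) had differences under 1.

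**Figure D5:**
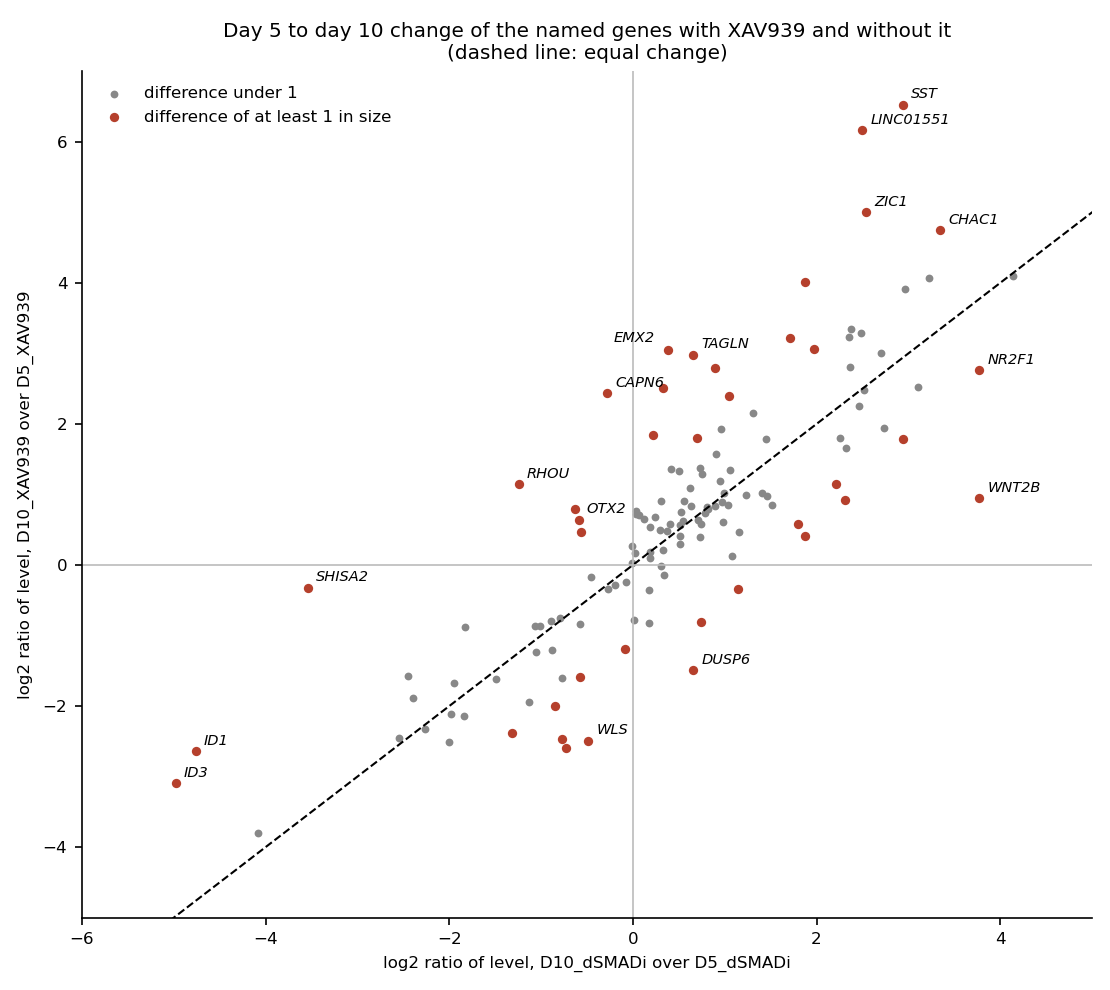
Log2 ratio of level from day 5 to day 10 with XAV939 (vertical) against that without it (horizontal) for the named genes reported here, 1 library per condition; red points differ by at least 1 and the dashed line marks equal change. LINC01551 (6.17 and 2.50) lies above the line and WNT2B (0.94 and 3.77) below it.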

How the data were processed

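The authors tagged 5 conditions with CellPlex oligonucleotides, pooled them in 1 droplet run (10× Genomics 3′ chemistry) and aligned reads to GRCh38 with Cell Ranger, 6.1.2 per the file headers and 3.1 per the labels. They deposited UMI counts per gene and barcode for each condition, whole numbers without normalization. The study's cell numbers equal the deposited barcodes (2919 and 2638), and its stated limits on genes per UMI would leave 2815 and 2168 cells. Gene expression rows only were used here, with the cell filter given above and 0 unmapped columns. UMIs were summed per condition and scaled to CPM.

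The members and gene lists were chosen with earlier results of these data known. Named genes are the 15 with the largest ratio in each direction at 50 CPM or more, up to 4 per list at 20 CPM or more, the 8 with the largest difference between arms in each direction, and the pluripotency, forebrain and proneural genes at 20 CPM or more. Further list members were named after their values were seen, and a few genes that the rule names are not reported here. Levels have exact Poisson intervals, ratios exact binomial ones, shares Clopper-Pearson ones and differences normal ones from Poisson variances. PCR duplicates are removed by UMIs, and intervals and floors (3 counts) cover counting error only. Scripts were tested on simulated data. Doublets were scored with Scrublet in scanpy 1.11.5. Its automatic threshold marked 0 and 7 cells, and whether it worked was not tested. A score over 0.25 marked 67 (2.37%) and 51 (2.17%), which were kept. Scaling used edgeR 4.0.16 in R 4.3.3 for TMM, and other steps Python 3.11.15, numpy 2.4.6, scipy 1.17.1 and pandas 2.3.3. Promoters came from RefSeq, and gene annotation from GENCODE 44. Promoters of DLL1, DLL3, DLK1, HEY1, MFNG, IER3 and SLC7A11 were not used here.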

Additional observations from a re-analysis of the deposited data

Results flagged for a closer look

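With 1 library per condition no difference between arms could be tested, and the following genes are given as values only. At least 2-fold in opposite directions from day 5 to day 10 with XAV939 and without it were 7 genes. RHOU, an atypical small GTPase, was at 23.9 and 53.02 CPM with XAV939 and 28.7 and 12.1 without (difference of log2 changes 2.39). HAS2, a hyaluronan synthase, was at 3.05 and 7.46 CPM with XAV939 and 1.42 and 0.673 without (2.37). MYO3B, a class III myosin, was at 3.04 and 7.596 CPM with XAV939 and 5.44 and 1.45 without (3.23). CHRNA3, a nicotinic receptor subunit, was at 1.21 and 6.37 CPM with XAV939 and 1.47 and 0.642 without (3.59), and 90.2% of its D10_XAV939 UMIs lay in the 70 cells with 5 or more neuronal genes.

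The other 3 went down with XAV939 and up without it. RNF207, a RING finger protein, was at 0.785 and 0.216 CPM with XAV939 and 1.23 and 2.56 without (-2.91). C5AR1, a complement receptor, was at 2.61 and 1.05 CPM with XAV939 and 1.77 and 4.43 without (-2.63). GRIN2B, an NMDA receptor subunit, was at 1.41 and 0.527 CPM with XAV939 and 1.77 and 3.75 without (-2.51). Of the 7, RHOU was the one gene above 10 CPM in any library. The RHOU log2 ratio with XAV939 was 1.15 and came to 0.98, just under 2-fold, at its lowest under other processing. RNF207 rests on 70 and 16 UMIs with XAV939.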

How the results depend on the processing

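Counts of genes depended mainly on the minimum level. With a mean of at least 5 CPM, 417 genes were 2-fold higher and 130 lower, and the difference between arms was above 1 for 81 genes and below -1 for 92. With no minimum, 2877 were higher and 1589 lower. Totals without mitochondrial and ribosomal protein genes gave 540 lower genes, and thinning gave 419 genes with a difference below -1. The share of cells with 3 or more neuronal genes was 24.8% at D5_XAV939 and 39.2% at D10_XAV939 without thinning, 23.1% and 34.0% at 2 or more genes, and 0.0% and 2.98% at 5 or more. The complexity limits (861 higher, 335 lower), a higher UMI minimum (861 and 341), doublet removal (868 and 341), thinning (945 and 358) and no cell filter (871 and 329) left the 2-fold counts within 1.5 times. Of the 136 named genes, 73 were at least 2-fold apart, and none of their 584 values under 8 alternatives changed sign. Of all 1088 values, 14 changed sign, in CRABP2, KRT8, TERF1, USP44 and TCF7L2, whose log2 ratios were at most 0.16 in size. Of 256 list medians 21 changed sign, all in lists with medians near 0. Causes were not tested. No paired analysis was possible because each condition is 1 culture with no replicate number, and leaving out a replicate was not possible for the same reason.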

Other observations

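Further gene lists were compared between D5_XAV939 and D10_XAV939. Of 32 glycolysis and low oxygen genes, 30 reached the minimum level of a mean of 1 CPM, with a median log2 ratio of -0.03. Of the 30, 2 were at least 2-fold higher (6.67%, near the 6.44% of all genes) and 2 lower (6.67%, against 2.45%). Besides VEGFA, the higher one was DDIT4, a stress-induced inhibitor of mTORC1 (229 and 486 CPM), and the lower ones were the glucose transporter SLC2A3 (45.9 and 19.98 CPM) and the hormone gene ADM (6.84 and 2.01 CPM). GAPDH was at 2388 and 2368 CPM. The glucose transporter SLC2A1 was at 72.0 and 134 CPM, so the 2 transporters moved apart.

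Of 22 chromatin and DNA methylation genes measured, 0 were higher and 1 lower (4.55%, against 2.45% of all genes), with a median log2 ratio of 0.14. The lower gene was DNMT3B, the de novo methyltransferase of early embryos (60.8 and 25.9 CPM). TET1, which oxidizes methylcytosine, was at 221 and 128 CPM, and EZH2, the Polycomb methyltransferase, at 86.0 and 154. Of 24 imprinted and growth genes, 20 reached the minimum level (median log2 ratio 0.29). Of the 20, 3 were higher (15%, against 6.44% of all genes) and 0 lower. The 3 were PLAGL1, a zinc-finger factor (6.15 and 21.2 CPM), DLK1 and IGFBP3. Of 15 cyclin D and CDK inhibitor genes, 12 reached the minimum level, and 2 were higher (16.7%, against 6.44%) and 0 lower. They were CDK6 (7.49 and 17.8 CPM) and CDKN2D (4.07 and 9.91 CPM).

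Of 18 retinoid genes, 8 reached the minimum level, and 0 were higher and 2 lower (25%, against 2.45% of all genes). The lower ones were the receptor RARG (3.59 and 0.514 CPM) and STRA6 (1.63 and 0.797 CPM), which takes up retinol. Both were under 1 CPM in D10_XAV939 and passed the minimum through their day 5 level alone, so only a fall was open to them. CRABP1, the retinoic acid binding protein, was at 292 and 469 CPM, with 46.4% of its D10_XAV939 UMIs in the 70 cells rich in neuronal genes and 258 CPM in the other cells. Its relative CRABP2 was at 165 and 165 CPM. Of 10 eye field genes, 6 reached the minimum level (median log2 ratio 0.40). Of the 6, 1 was higher (16.7%, against 6.44% of all genes) and 1 lower (16.7%, against 2.45%). The higher one was under 1 CPM in D5_XAV939 and passed the minimum through its day 10 level alone. Of 10 neural crest markers, SOX9 alone reached the minimum. Of 15 mesoderm and endoderm markers 3 did. The chemokine receptor CXCR4 was higher at 4.04 and 13.6 CPM and FOXA1 lower at 1.97 and 0.108, and GSC was within 2-fold at 1.32 and 1.42. FOXA1 passed the minimum through its day 5 level alone.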
